A study of Canis lupus familiaris with 20 samples.

Results

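RNA from exosomes of the dog osteosarcoma cell line OSCA-78 was compared with RNA from OSCA-78 cells. The members were chosen by their titles and comprised 4 of the 20 libraries of the study, namely exosome replicates 2 and 3 and cell replicates A and B. Osteosarcoma is a malignant tumour of bone, and the study looked for genes in exosomes that mark dogs with this disease. It also held cells and exosomes of the lines OS-1, OS-2 and OSCA-8 and exosomes of OSCA-32. No treatment, genotype or passage is given in the labels, and OSCA-78 is 1 line. Exosomes came from culture supernatants. The labels list enrichment with ExoQuick, a precipitation reagent, for every sample and do not say whether the cells underwent it. If they did not, an effect of this step cannot be told apart from a difference between exosomes and cells. Whether replicates are separate cultures is not stated, and the p-values therefore rest on a spread between libraries that may be technical.

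Exosomes are small membrane vesicles. They form inside late endosomes and are released when these fuse with the plasma membrane, and they carry proteins and RNA of the cell, including pieces of messenger RNA and noncoding RNA. Exosomes of tumour cells are studied as carriers of tumour RNA in blood. The table names genes by Ensembl identifier alone, and 0 of its 24579 identifiers matched the RefSeq gene table used here, so that the products of the genes, and markers of osteoblasts or of exosomes, are not analysed here. At most 2 identifiers that rose and 2 that fell are therefore printed, and other genes are described by their levels.

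The cell libraries held 12046762 (A) and 12950978 (B) counts, and the exosome libraries 321618 (replicate 2) and 407898 (replicate 3). Levels are given in CPM, the counts of a gene scaled to the library total, which describe composition and not the amount of RNA per vesicle or per cell. A count of 0 allowed up to 0.249 and 0.232 CPM in cells A and B and up to 9.33 and 7.35 CPM in exosomes 2 and 3, taking 3 counts as the limit. Intervals and limits cover counting error only. With 2 libraries a fraction, an exact permutation test of a single measure cannot go below p = 0.33, so measures of whole libraries are given without a test. Those of genes were tested with edgeR's quasi-likelihood F test in a fit of 18 libraries.

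The exosome libraries differed from each other at a few very abundant genes. There were 5 genes above 1% of an OSCA-78 exosome library. Together they took 19.6% of exosome replicate 2 (Clopper-Pearson 95% interval 19.4% to 19.7%) and 1.33% of replicate 3 (1.30% to 1.37%), but 0.0348% and 0.117% of cells A and B. The most abundant of them stood at 94034 CPM in exosomes 2, 471 CPM in exosomes 3, 105 CPM in cells A and 888 CPM in cells B. Replicate 3 thus lay between the cell libraries, and the gene was not called (edgeR adjusted p = 0.0785). Another stood at 18963 and 53.9 CPM in exosomes 2 and 3 and at 31.4 and 143 CPM in cells A and B, and was not called either (edgeR adjusted p = 0.0814). Both of these genes were also higher in cells B than in cells A. In exosomes of other lines the gene at 94034 CPM took either of 2 levels. It stood at 89132 to 322734 CPM in OS-1 replicates 1 and 2, OS-2 and OSCA-8, and at 274 to 640 CPM in OS-1 replicates 3 and 4 and OSCA-32, while the cells of other lines held 74.9 to 823 CPM. OSCA-78 exosomes 2 fell within the former range and exosomes 3 within the latter. The gene at 18963 CPM was likewise at 19035 to 53079 CPM in the former libraries, just above OSCA-78 exosomes 2, and at 2.47 to 26.8 CPM in the latter, below exosomes 3. The labels do not name what sets these libraries apart, and whether it was a step of preparation was not tested.

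Most genes agreed more closely. The genes counted here include those of the 5 above 1% that reached 10 counts in both exosome libraries. Of 8375 genes with at least 10 counts in both exosome libraries, 6918 (82.6%) were within 2-fold of each other in CPM and 62 (0.740%) differed by more than 4-fold. Replicate 3 was the higher library for most genes, with a median log2 ratio of replicate 2 over replicate 3 of -0.24. Relative to that median, 44 genes were more than 4-fold higher in replicate 2 and 4 in replicate 3. Without that centring, 19 of the 32 genes that were more than 4-fold higher in replicate 2 belonged to the genes most abundant in cells (group 5, explained further on), which made up 31.7% of the genes compared. The cell libraries differed by more than 4-fold in 440 of 12755 genes (3.45%), although 82.5% of genes were within 2-fold there as well. Depth differs between these pairs, and the minimum of 10 counts lies at a much higher CPM in exosomes than in cells.

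**Figure D1:**
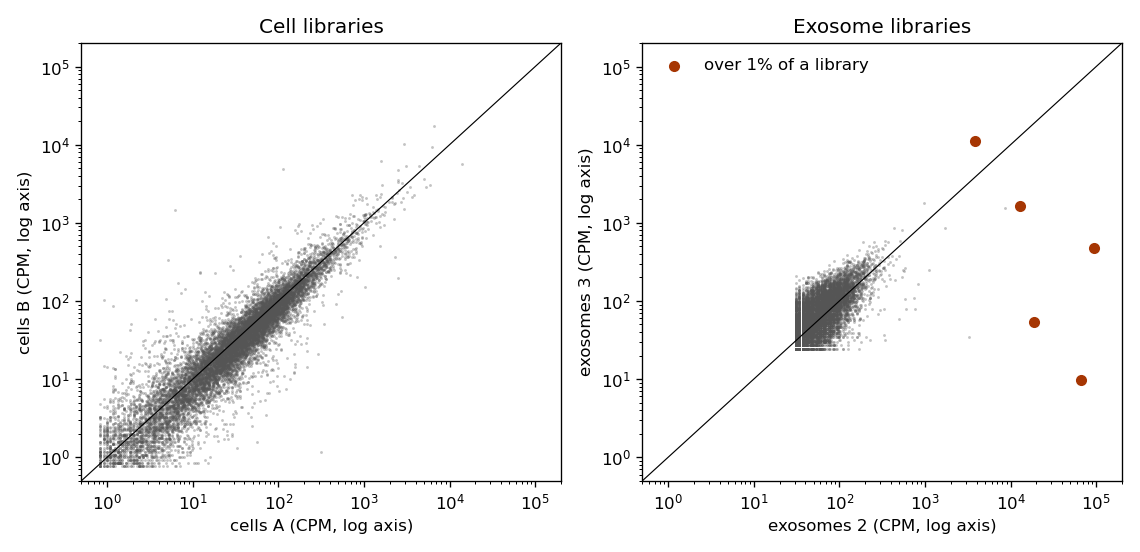
Level of each gene in cells A against cells B (left) and in exosomes 2 against exosomes 3 (right), in CPM on log axes; grey points are genes with at least 10 counts in both libraries, brown points the 5 genes above 1% of an exosome library, 1 of which has 4 counts in exosomes 3, and the line marks equal levels. Of the brown points 4 lie far below the line, as high as 94034 CPM in exosomes 2, and 1 lies above it.

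Spearman's rho between the exosome libraries was 0.69 over the 16211 genes tested. Each of them correlated more closely with exosomes of another line, with 0.77 between OSCA-78 replicate 2 and OS-1 replicate 2 and 0.80 between OSCA-78 replicate 3 and OSCA-32 replicate 2. Against the cell libraries the coefficients were lower. Exosomes 2 gave 0.33 with cells A and 0.30 with cells B of OSCA-78, and 0.26 to 0.30 with the cells of other lines. Exosomes 3 gave 0.22 and 0.21 with their own cells and 0.17 to 0.20 with those of other lines. These coefficients are across genes, which are not independent replicates, and they depend on depth, which is shared within a fraction.

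More genes were found in the exosomes than in the cells, at a far lower depth. There were 20331 and 21245 genes with a count in exosomes 2 and 3 and 16194 and 16132 in cells A and B. At the total of the smallest of these libraries, cells A and B would show 12267 and 11981 genes and exosomes 3 would show 20838. Exosomes of OSCA-78 lay within the range of the other exosome libraries, which showed 16565 to 21281 genes. It took 954 and 794 genes to make up 50% of the counts of cells A and B, 2266 genes in exosomes 2 and 3554 genes in exosomes 3. The 10 most abundant genes took 5.82% and 7.27% of cells A and B, 21.3% of exosomes 2 and 2.08% of exosomes 3. The share of the most abundant genes was thus above that of the cells in one exosome library and below it in the other. Without the 5 genes above 1%, the 10 most abundant of the remaining genes took a mean of 1.78% of the exosome libraries and 6.55% of the cell libraries. Those 5 genes were chosen by their exosome level, and the cells kept their own most abundant genes. A fall on the exosome side was thus fixed by that choice.

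Genes without any count in OSCA-78 cells made up part of this breadth. Of 7423 such genes, for each of which the pooled cell counts allow up to 0.12 CPM, 5795 had a count in at least 1 exosome library and 3706 in both. They took 8.23% of exosomes 2 (Clopper-Pearson 95% interval 8.14% to 8.33%) and 11.8% of exosomes 3 (11.7% to 11.9%). At least 10 counts in each exosome library were found for 715 of these genes. Their mean exosome level had a median of 54.4 CPM and reached 369 CPM. The exosome libraries agreed within 2-fold for 604 of the 715, and for 6918 of all 8375 genes with that minimum, so this is no trait of these genes. Of the 715, 588 had a count in each of the 10 exosome libraries of other lines, for which no share over all genes was computed. Of the 715, 350 had no count in the cells of OS-1, OS-2 and OSCA-8 either. Among all 7423 genes without a count in OSCA-78 cells this held for 5768, a larger share.

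In the other direction, hardly any cell gene was missing from the exosomes. Of 8831 genes at 10 CPM or more in both cell libraries, 8582 (97.2%) had a count in both exosome libraries, 223 in 1 of them and 26 in neither. At 50 CPM or more in both cell libraries, 3877 of 3912 genes were found in both and 3 in neither. These 3 stood at 55.8 and 97.6 CPM, 246 and 248 CPM, and 120 and 198 CPM in cells A and B. They were at least 18.6-fold, 60.0-fold and 38.6-fold lower in exosomes, taking 3 counts over both exosome libraries as the limit (edgeR adjusted p = 0.00186, 0.0202 and 0.0233). The 3 genes were picked by these same counts, so their direction was fixed and the p-values are no further evidence. Other exosome libraries did hold these genes, 8, 6 and 4 of the 10.

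To describe the genes by their abundance without using the OSCA-78 counts, they were grouped by their pooled level in the cells of OS-1, OS-2 and OSCA-8. Group 0 held the 6184 genes without a count there, and groups 1 to 5 held 3679 genes each, from the scarcest (group 1, up to 0.300 CPM) through group 2 (up to 4.62 CPM), group 3 (up to 22.7 CPM) and group 4 (up to 62.7 CPM) to the most abundant (group 5). Group 5 took 76.9% and 79.9% of the counts of OSCA-78 cells A and B and 37.0% and 29.0% of exosomes 2 and 3. Group 4 took 16.2% and 14.5% of the cells and 18.1% and 20.9% of the exosomes. Groups 3 to 0 all took more of both exosome libraries than of either cell library. Group 3 took 5.84% and 4.81% of the cells against 19.7% and 17.5% of the exosomes, and group 2 took 1.003% and 0.735% against 11.1% and 13.6%. Group 1 took 0.0610% and 0.0504% against 8.62% and 10.8%, and group 0 took 0.00501% and 0.00413% against 5.47% and 8.22%.

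**Figure D2:**
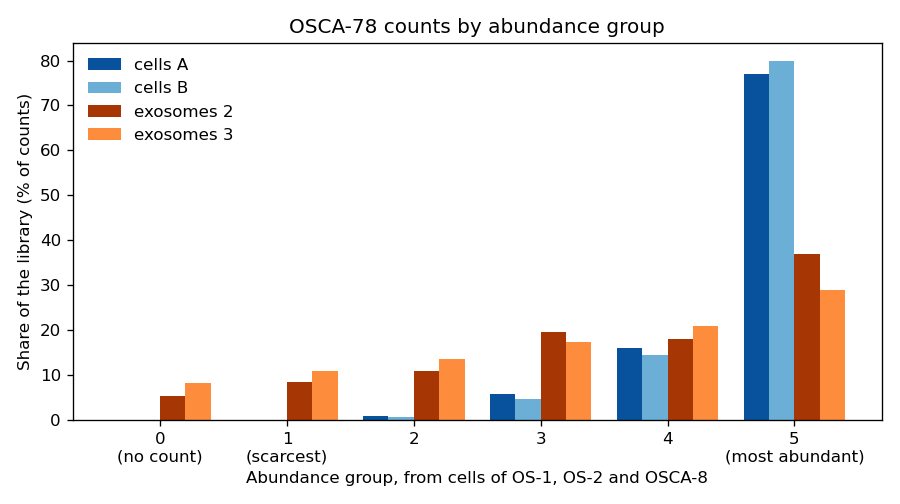
Share of the counts of each OSCA-78 library (vertical axis, in %) taken by the genes of each abundance group (horizontal axis), with 1 bar per library. The bars of both exosome libraries are lower than those of the cells in group 5 (37.0% and 29.0% against 76.9% and 79.9%) and higher in groups 0 to 4.

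The exosome libraries were closer to each other once the 5 genes above 1% were left out. Of the remaining counts, group 5 then took 32.7% and 29.2% of exosomes 2 and 3, group 3 took 15.8% and 16.6%, group 2 took 13.8% and 13.8%, and group 1 took 10.7% and 11.0%. The largest relative gap that remained was in group 0, with 6.80% and 8.33%.

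The median levels of the abundance groups spanned a narrower range in exosomes. The groups are ranked by cell level, so these medians do not give the spread of single genes. The median gene of group 5 stood at 117 and 115 CPM in cells A and B and at 56.0 and 61.3 CPM in exosomes 2 and 3. In group 4 the medians of cells and exosomes were close, at 39.8 and 35.4 CPM in cells and 34.2 and 44.1 CPM in exosomes. In group 2 the median was 1.41 and 1.08 CPM in cells but 18.7 and 22.1 CPM in exosomes. From group 2 to group 5 the median therefore rose 82.9-fold and 106-fold in cells A and B, and 3.0-fold and 2.78-fold in exosomes 2 and 3. The medians of groups 0 to 2 rest on few counts a gene in exosomes, where 3 counts already make 9.33 and 7.35 CPM. From group 1 to group 5 the medians rose in both exosome libraries, as they did from group 2 in the cells, where those of groups 0 and 1 were both 0.

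**Figure D3:**
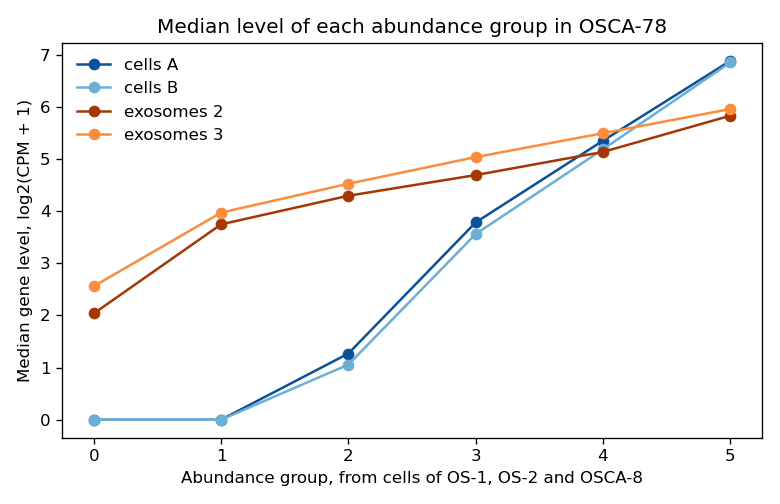
Median level of the genes of each abundance group in each OSCA-78 library, as log2(CPM + 1), against the group; points are medians over all genes of the group, those without a count included. The lines of the exosome libraries are flatter than those of the cells and cross them near group 4, where the medians lie between 34.2 and 44.1 CPM.

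Gene by gene, 6287 of the 16211 genes tested were higher in exosomes and 3899 lower at a Benjamini-Hochberg adjusted p under 0.05 by edgeR's quasi-likelihood test, so that 62.8% of genes were called, 38.8% as higher and 24.1% as lower. The higher genes had a median log2 fold change of 6.49, and 6270 of them exceeded 2-fold. The lower genes had a median of -2.32, and 3847 of them exceeded 2-fold. In CPM, both exosome libraries lay above both cell libraries for 6151 of the higher genes and below both for 3511 of the lower genes. Over all genes tested, the exosome libraries lay above both cell libraries in 56.1% and below both in 23.7%. Among the higher genes 2075 had no count in OSCA-78 cells. Their fitted folds depend on the prior count, and as the filter on low counts let such genes in through exosome counts, their direction was fixed.

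The balance of directions rested on the genes tested and on the scaling. Among the 6548 tested genes with at least 10 counts in each of the 4 libraries, 1386 were higher and 1930 lower, a minimum that leaves out the genes absent from either fraction. TMM, the scaling used in the fit, gave factors of 0.905 and 0.811 to cells A and B and 1.31 and 1.71 to exosomes 2 and 3. Of the called genes 61.7% were higher with TMM, 73.6% with RLE, 71.5% with upper quartile scaling and 78.1% with total counts. Higher and lower genes numbered 7606 and 2133 with total counts, 7265 and 2600 with RLE, and 7057 and 2817 with upper quartile scaling. Over all genes tested, the median log2 fold change moved from 0.48 with TMM to 1.07, 0.95 and 1.30 with RLE, upper quartile and total counts. All 6287 higher genes were also higher under each of these scalings. Each of the 2133 genes lower with total counts was among the 3899 lower with TMM. A scaling moves all folds by nearly the same amount, and each of these moved them upward, so both overlaps were largely fixed.

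Read by group, the calls followed abundance in cells. In groups 0 to 2, 5205 of the 5735 genes tested were higher and 1 was lower. Their direction was largely fixed, since the median cell level of these groups lay below the 7.35 CPM that 3 counts make in the deeper exosome library. Group 3 had 826 of 3120 genes higher (26.5%, against 38.8% of all genes) and 145 lower (4.65%, against 24.1%). The filter came to 20.8 CPM, above the median level of this group in cells, so that genes of group 3 could also pass it through exosome counts alone, and its counts are given as a description. Without the filter 722 were higher and 233 lower. Group 4 had 213 of 3677 higher and 1050 lower, and group 5 had 43 of 3679 higher (1.17%) and 2703 lower (73.5%). The median log2 fold change was 0.70 in group 3, -0.65 in group 4 and -1.90 in group 5, beside 0.48 for all genes. Relative to all genes, group 5 lay at -2.38 under TMM and RLE and at -2.39 with total counts, and group 4 at -1.14 under each. Taking off the median of all genes removes most of what a scaling adds, so this likeness across scalings was fixed. These offsets depended on the genes tested. After thinning they were -1.88 and -0.59, and with a minimum count of 50 they were -0.96 for group 5 and 1.45 for group 4, where the median of all genes fell to -0.10. The calls of group 4 turned with total counts, to 619 higher and 356 lower with a median of 0.16, and were even with RLE (507 higher and 514 lower). Group 5 kept its direction, with 141 higher and 1734 lower with total counts. Without exosome replicate 3, 129 genes of group 4 were higher and 631 lower, 27 of group 5 were higher and 68 of group 3 lower, and without cells B 139 of group 4 were higher.

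**Figure D4:**
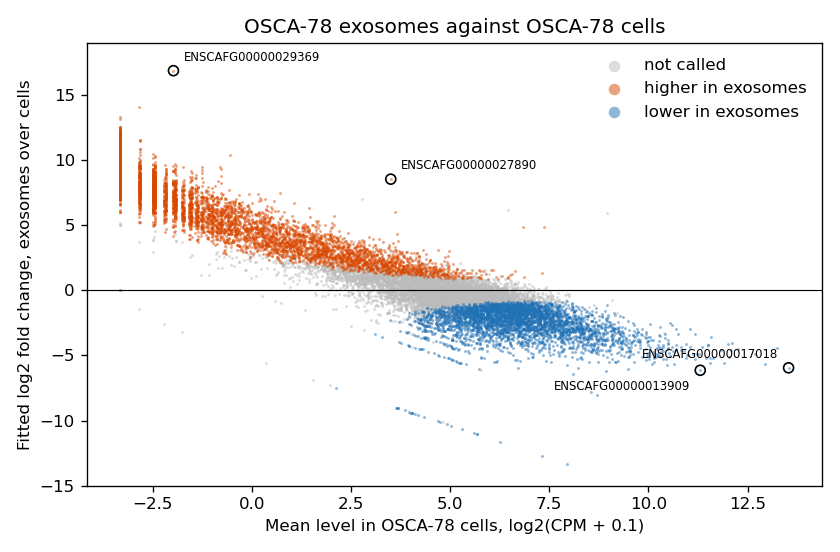
Fitted log2 fold change of exosomes over cells (vertical axis) against the mean level in OSCA-78 cells, as log2(CPM + 0.1), for the genes tested; orange and blue points were called at an adjusted p under 0.05, grey points were not, and the 4 circled genes are those described by identifier. Folds fall with the cell level, from a median of 9.10 in group 0 to -1.90 in group 5, in part because the cell level enters both axes.

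Among the genes called higher, ENSCAFG00000029369 took the largest share of the exosome counts. It had 21276 counts in exosomes 2 (66153 CPM, 6.62% of the library) but 4 counts in exosomes 3 (9.81 CPM), and 0 and 4 counts in cells A and B (0 and 0.309 CPM). The exosome replicates thus differed 6746-fold. On the log2 scale the fit gave a change of 16.87 (SE 6.31, edgeR adjusted p = 0.0302), and without exosome replicate 2 it was 4.75 (edgeR adjusted p = 0.537). The call was also lost without either cell library, with the replicate block, without the filter, with limma voom, after thinning and without the OS-2 line, at adjusted p of 0.0592 to 0.148.

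ENSCAFG00000027890 showed a rise in both exosome libraries. It stood at 3852 CPM in exosomes 2 and 11133 CPM in exosomes 3, where it was the most abundant gene with 1.11% of the counts, and at 11.5 and 11.0 CPM in cells A and B. Exosomes lay far above cells, 7493 ± 5148 CPM against 11.3 ± 0.406 CPM (SD, n = 2 each). The change on the log2 scale came to 8.54 with an SE of 1.29 (edgeR adjusted p = 1.77e-05). Unlike the genes that took most of replicate 2, this gene was 2.89-fold higher in replicate 3. It was present at 1561 to 14362 CPM in the 10 exosome libraries of other lines and at 2.85 to 14.6 CPM in their cells, and the difference in OSCA-78 was not called as different from that of the other lines (edgeR interaction, adjusted p = 1.0).

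Among the genes called lower, ENSCAFG00000017018 had the highest level in OSCA-78 cells, at 6533 CPM in cells A and 17199 CPM in cells B. It stood at 445 and 186 CPM in exosomes 2 and 3. Its lowest cell library was 14.7-fold above its highest exosome library. The change on the log2 scale came to -5.95 with an SE of 1.32 (edgeR adjusted p = 6.67e-04). ENSCAFG00000013909 had the largest fall among genes with at least 10 counts in every library, and it owed this to cells B. It stood at 4953 CPM there, 43.2-fold above the 115 CPM in cells A, and at 74.6 and 51.5 CPM in exosomes 2 and 3. The fit put its log2 change at -6.14 with an SE of 1.56 (edgeR adjusted p = 0.00294), but -1.59 without cells B, where it was not called (edgeR adjusted p = 0.221).

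The last comparison asked whether the exosome-to-cell difference of OSCA-78 was that of the other lines. The interaction test of OSCA-78 against the mean of OS-1, OS-2 and OSCA-8 called 32 of 16211 genes (0.197%, edgeR adjusted p under 0.05), with 6 higher and 26 lower in OSCA-78. Of the genes tested, 2097 had no count in OSCA-78 cells. Some genes without a count in OSCA-78 cells or exosomes had large fitted differences, yet an adjusted p of 0.999998 (edgeR interaction). Another without a count in OSCA-78 cells was called (edgeR interaction, adjusted p = 0.0108). How many genes could not be called was not tested, so the share called does not measure how alike the lines were. For 23 of the 26 lower genes both OSCA-78 cell libraries lay above all 6 cell libraries of the other lines, and for 5 of the 6 higher genes both lay below all of them. Among all genes tested, OSCA-78 cells lay above all other cells in 6.83% and below all in 3.34%. The exosome libraries of OSCA-78 overlapped with the 8 exosome libraries of these lines for 30 of the 32 genes, which is near the 95.8% of all genes tested for which they did. As log2 ratios of CPM + 1 against the mean of the other lines, the cells had a median of 2.33 for the lower and -3.70 for the higher genes, while the exosomes had medians of 0.33 and 0.44. Cells and exosomes of the same libraries went into the test, so these positions describe the genes called and are no further evidence.

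The gene with the smallest interaction p is an example. It was nearly absent from OSCA-78 cells, at 0.166 and 1.004 CPM in A and B, against 27.3 to 143 CPM in the cells of the other lines. In exosomes 2 and 3 it stood at 52.9 and 154 CPM, within the 37.5 to 195 CPM of the exosomes of these lines. Its fitted log2 fold change was 6.56 in OSCA-78 and -0.25 in the other lines (edgeR interaction, adjusted p = 7.55e-04). The gene next in order was the exception in which the exosomes stood apart as well. It was at 94.3 and 68.3 CPM in OSCA-78 cells, above the 29.8 to 58.3 CPM of other cells, and at 6.22 and 14.7 CPM in OSCA-78 exosomes, below the 22.1 to 164 CPM of other exosomes (edgeR interaction, adjusted p = 0.00147). For a gene at 191 and 122 CPM in cells A and B, against a median of 1.54 CPM and at most 35.1 CPM in other cells, the exosomes held 46.6 and 34.3 CPM, and the other exosomes had a median of 25.6 CPM.

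**Figure D5:**
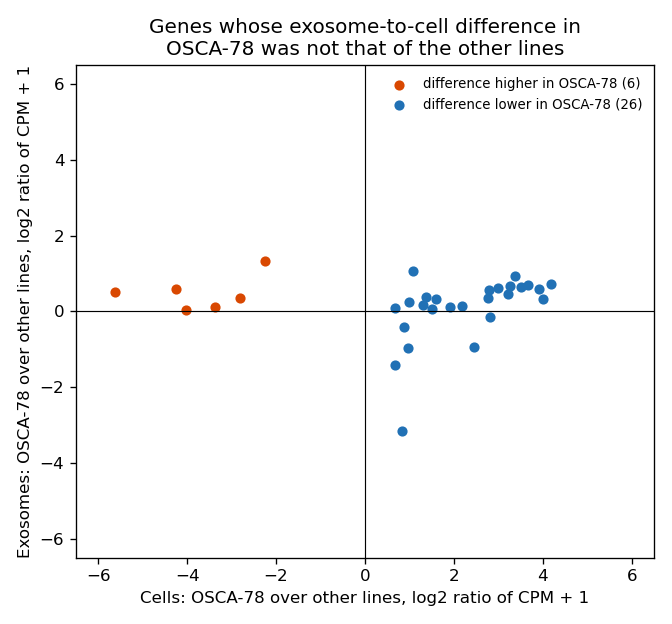
The 32 genes whose exosome-to-cell difference in OSCA-78 was called as different from that of the other lines, with the log2 ratio of OSCA-78 to the mean of OS-1, OS-2 and OSCA-8 in cells (horizontal axis) and in exosomes (vertical axis), from CPM + 1. The points spread from -5.62 to 4.19 along the cell axis and from -3.16 to 1.33 along the exosome axis.

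The size of this list depended on the fit. It held 212 genes with the replicate block, 31 of them among the 32, and 307 with DESeq2, which included all 32. It held 10 genes without exosome replicate 2 and 6 without exosome replicate 3, of which 7 and 6 were among the 32. It held 48 without cells A and 66 without cells B, with 26 of the 32 in each, and 12, with 11 of the 32, without the OS-2 line, with whose exosome libraries those of OSCA-78 correlated least among exosomes (Spearman's rho 0.38 to 0.53 across genes). With total counts it held 59 genes, 28 of them among the 32.

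Genes with a marked level in OSCA-78 cells were also followed by a rule on the cells alone, chosen with the data in view and given without a test. There were 12 genes at 10 CPM or more in each cell library of the other lines and at least 4-fold lower in both OSCA-78 cell libraries than in any of those. Of these, 11 had counts in both OSCA-78 exosome libraries. The level in OSCA-78 exosomes was below the mean of the other lines for 8 of the 12 genes, against 25.9% of all genes tested, and below each of their 8 exosome libraries for 5, against 0.642% of all genes tested. Those shares are over genes of all levels and are not matched to the level this rule required. Group 5 took 29.2% to 64.6% (mean 43.3%) of those 8 libraries, against 37.0% and 29.0% of OSCA-78 exosomes 2 and 3. The median of the 12 genes was 13.9 CPM in OSCA-78 exosomes and 45.0 CPM in the others, against 1.04 and 81.4 CPM in the cells. By line it was 40.2 CPM in OS-1, 17.2 CPM in OS-2 and 60.0 CPM in OSCA-8 exosomes, so OS-2 lay close to OSCA-78. The one gene without a count in any OSCA-78 library stood at a mean of 131 CPM in other cells and 41.3 CPM in other exosomes. The opposite rule, at least 10 CPM and 4-fold above every other cell library, found 4 genes, of which 3 were above the mean of the other lines in exosomes, where 74.1% of all genes tested were.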

How the data were processed

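RNA-seq libraries of OSCA-78 cells (2) and exosomes (2) were analysed, with 16 libraries of other lines beside them. The data are raw counts per gene, as whole numbers, in 1 table that the authors deposited for 24579 identifiers. The SeraMir ExoRNA kit (RNA) and a SMARTer Stranded Total RNA-seq kit (libraries) were used, per the labels' protocols. Tools and builds listed, per the submitters' processing notes, are kallisto 0.43.0, Trimmomatic 0.33.0, FastQC 0.11.5, CanFam3.1 and GRCm38.p5. The counting tool, whether it used strand and how it split reads among similar genes were not given in the sources consulted, which leaves near-identical and overlapping genes uncertain. A further OSCA-78 exosome column (1 in the table) had no sample label and was not used.

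The 18 libraries of the lines with both fractions were fitted with edgeR 4.0.16 (limma 3.58.1, R 4.3.3), with 1 mean per line and fraction, TMM scaling, filterByExpr (minimum count 10, which came to 20.8 CPM), robust dispersions and Benjamini-Hochberg adjustment at 0.05. The fit was tested on simulated data. DESeq2 1.42.0 and limma voom were alternatives. Identifiers were named by a rule: the gene called higher with the largest share of pooled exosome counts, the called gene with the highest mean cell CPM that was lower, and the largest fitted rise and fall among called genes with at least 10 counts in each of the 4 libraries. The members, groups and lists were chosen with earlier results of these data known. The 15 gene lists by symbol could not be applied, since no identifier matched a symbol. A chi-square per degree of freedom of 8.91 between exosomes 2 and 3 and of 101 between cells A and B showed no copies.

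Exosome numbers and cell letters do not pair the fractions. The difference of cells A minus B in OSCA-78 correlated with that of OS-1, OS-2 and OSCA-8 at 0.35, 0.16 and 0.36. The difference of exosomes 2 minus 3 correlated with that of OS-1 at 0.28. The reported calls came from the fit without a term for letters or numbers. Pairs across lines entered only the replicate block, an alternative with a term for each letter and number, on the evidence of the counts alone.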

Additional observations from a re-analysis of the deposited data

Results flagged for a closer look

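The exosome-to-cell difference in OSCA-78 departed from the mean of OS-1, OS-2 and OSCA-8 by the interaction test in 32 genes (edgeR adjusted p under 0.05). Of the 16211 genes tested, 1702 had an unadjusted p under 0.05 in this test, a count without adjustment for the number of genes. Genes without a count in OSCA-78 cells or exosomes could be missed by the test, so neither count measures how alike the lines were. Both OSCA-78 cell libraries lay outside the range of the other lines' cells for 28 of the 32, against 10.2% of all genes tested. These cell values went into the test, so the position describes the genes called and is no further evidence.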

How the results depend on the processing

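Depth limits the exosome side, where 3 counts make 7.35 to 9.33 CPM. The counts of genes higher and lower in OSCA-78 exosomes were within 1.5 times those reported for 14 and 13 of 16 alternatives. The others were 9646 higher without a filter, 1578 higher and 1506 lower with a minimum count of 50, which tests 4859 genes, and, for lower genes, 2133 with total counts and 1855 after thinning to the smallest total of the fit. No gene called in 1 direction was called in the other under any alternative. With the replicate block 6449 genes were higher and 4305 lower. For leaving out each OSCA-78 library, where the lone library is assumed to vary like the other groups, the ranges were 5966 to 6699 higher and 2942 to 3551 lower.

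The interaction moved most. Genes higher and lower in OSCA-78 were 46 and 166 with the replicate block, 108 and 199 with DESeq2, 25 and 76 without a filter, 2 and 10 with a minimum count of 50, and 2 and 7 after thinning. Those higher were 17 with RLE, 36 with total counts, 11 with upper quartile scaling and 19 with limma voom, and those lower were 7 without the OS-2 line. Leaving out each OSCA-78 library gave 2 to 23 higher and 4 to 44 lower.

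Group 3 had 1273 genes higher and 57 lower with RLE, 1403 and 42 with total counts, and 233 lower without a filter. Group 4 had 507 and 514 with RLE and 619 and 356 with total counts, and group 5 had 94 higher with RLE and 141 higher and 1734 lower with total counts. Groups 0 to 2 had 8723 higher without a filter. With groups formed from cells A and cells B as the cell side, group 3 had 385 genes higher and 288 lower, group 4 had 103 higher and group 5 had 19 higher. Leaving out each library gave 68 to 157 lower in group 3, 129 to 161 higher and 631 to 876 lower in group 4, and 27 to 40 higher in group 5. Where no construction of the alternative is named, the cause was not tested. Thinning to the smallest OSCA-78 total gave 12124 genes in cells, and at 3 counts or more 14841 genes were detected in cells and 17450 in exosomes. DESeq2 gave ENSCAFG00000029369 no adjusted p. Leaving out the OS-2 line and the 5 genes over 1% were chosen after seeing the data.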
